A study of Mus musculus with 18 samples.

Results

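The genes described here encode proteins of the cardiac extracellular matrix or mark the fibroblasts that make most of it. They are a named list of 34 mouse genes, of which 32 had a row in the deposited tables of 10597 genes. Lox and Cthrc1, the other listed genes, were not analysed here. Left ventricles came from 5 mORF4/NBDY KO and 4 WT mice, all male C57BL/6 animals aged 20 weeks and given no treatment. NBDY (mORF4) is a microprotein that binds the mRNA decapping machinery, and the labels do not say how the KO allele was made. Each heart gave a poly-A RNA library and a library of ribosome footprints, the mRNA fragments covered by translating ribosomes, so n counts animals. Hearts keep the submitters' numbers, 6 to 10 for KO and 1 to 4 for WT.

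Fibrillar collagens bear the tension of the heart wall, elastic fibres give it recoil, and a basement membrane of type IV collagen, laminin and nidogen wraps each cardiomyocyte and capillary. Collagen chains are made in the endoplasmic reticulum, wound into triple helices, secreted, trimmed and then cross-linked outside the cell by lysyl oxidases. Cardiac fibroblasts make most of the fibrillar matrix, while endothelial, smooth muscle and muscle cells add to the basement membrane and elastin. Matrix genes are known to rise together when fibroblasts are activated, as after injury or pressure load.

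Values are normalized reads, that is, gene counts divided by 1 size factor per library. In M reads, RNA libraries held 15.8 to 20.2 in KO and 11.2 to 12.4 in WT, so every KO RNA library was deeper, and a batch of RNA libraries and genotype cannot be told apart. Footprint libraries held 22.9 to 40.8 M in KO and 6.67 to 36.7 M in WT, where heart 2 was the shallowest. Footprints of the targeted gene Nbdy were 10.9 to 19.0 normalized reads in KO hearts and 107 to 355 in WT hearts, so the groups did not overlap. All 7 fibroblast markers used for the check (Pdgfra, Tcf21, Dcn, Lum, Col1a1, Col1a2 and Col3a1) had reads in all 18 libraries. Their lowest RNA value was 27.8 for Tcf21 and their highest 9358 for Dcn. In whole ventricle, fewer cells of a type and less RNA per cell cannot be told apart.

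Promoter windows of 300 bases (250 before and 50 after the annotated start; RefSeq, GRCm38.p6) are shown for 4 genes. These are Col1a2 and Cpxm2, because their RNA differed between genotypes, and Col4a1 and Col4a2, because they start side by side on opposite strands. Each is written 5′ to 3′ on the gene's own strand. Capitals mark the CCAAT box (letters CCAAT), the GC box (letters GGGCGG) and the TATA box (letters TATAAA), searched on both strands.
Col1a2, chr6:4505368-4505667, plus strand: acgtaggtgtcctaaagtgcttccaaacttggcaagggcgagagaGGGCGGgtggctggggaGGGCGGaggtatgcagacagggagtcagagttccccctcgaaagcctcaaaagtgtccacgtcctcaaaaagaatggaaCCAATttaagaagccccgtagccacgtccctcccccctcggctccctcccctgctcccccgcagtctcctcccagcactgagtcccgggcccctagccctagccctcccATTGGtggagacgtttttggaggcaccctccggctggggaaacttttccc
Cpxm2, chr7:132154692-132154991, minus strand: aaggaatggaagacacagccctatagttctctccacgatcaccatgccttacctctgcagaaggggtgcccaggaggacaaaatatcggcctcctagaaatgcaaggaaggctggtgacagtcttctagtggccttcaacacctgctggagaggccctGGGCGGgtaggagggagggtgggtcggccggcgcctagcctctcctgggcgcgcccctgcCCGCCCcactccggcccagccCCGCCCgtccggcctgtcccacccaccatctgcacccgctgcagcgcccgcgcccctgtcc
Col4a1, chr8:11312777-11313076, minus strand: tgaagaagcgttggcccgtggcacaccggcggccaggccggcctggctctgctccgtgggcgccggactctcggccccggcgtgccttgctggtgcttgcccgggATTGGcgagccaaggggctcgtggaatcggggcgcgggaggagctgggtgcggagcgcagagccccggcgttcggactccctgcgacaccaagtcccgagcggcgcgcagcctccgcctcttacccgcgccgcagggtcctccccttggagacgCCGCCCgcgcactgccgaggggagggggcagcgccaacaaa
Col4a2, chr8:11312555-11312854, plus strand: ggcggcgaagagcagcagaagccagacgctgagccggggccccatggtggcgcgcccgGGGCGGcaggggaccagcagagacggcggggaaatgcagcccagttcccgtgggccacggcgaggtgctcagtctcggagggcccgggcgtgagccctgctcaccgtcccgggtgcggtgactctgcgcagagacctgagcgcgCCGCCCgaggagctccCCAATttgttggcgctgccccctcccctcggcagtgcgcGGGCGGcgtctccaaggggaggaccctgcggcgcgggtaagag
Col1a2 held CCAAT on both strands and GGGCGG, and Cpxm2 held GGGCGG but no CCAAT in this window. The Col4a1 and Col4a2 windows share 78 bases, and both held CCAAT and GGGCGG. Of 32851 promoter windows in the table, 37.4% held CCAAT, 35.7% GGGCGG and 13.6% TATAAA on either strand. Windows were found for 21 of the genes described here, 23 windows in all, of which 7 held CCAAT, 14 GGGCGG and 2 TATAAA. These are letter matches, not binding sites.

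Most of the 32 matrix and fibroblast genes were high together in a single heart of each genotype. KO heart 6 had the highest RNA value among KO hearts for 28 of the 32 genes, and WT heart 2 the highest among WT hearts for 27. The footprints of the same hearts stood out in the same way, with heart 6 highest among KO hearts for 27 genes and heart 2 highest among WT hearts for 30. For the median gene, heart 6 had 1.44 times the RNA and 1.52 times the footprints of the median of the other KO hearts. Heart 2 had 1.36 times the RNA and 1.49 times the footprints of the median of the other WT hearts.

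To place the hearts on 1 scale, each gene's log2(normalized reads + 1) was set against its own mean over the 9 hearts, and the median over the 32 genes was taken. In RNA this level was 0.43, 0.05, -0.13, -0.25 and -0.05 in KO hearts 6, 7, 8, 9 and 10, and -0.08, 0.31, -0.26 and -0.05 in WT hearts 1, 2, 3 and 4. In footprints it was 0.43, -0.08, -0.16, -0.37 and -0.10 in those KO hearts and -0.02, 0.60, -0.07 and -0.06 in those WT hearts. The genotypes overlapped in both assays, and each held a single high heart. The same median over all genes tested was 0.00 in every RNA library and between 0.01 and 0.02 in the footprint libraries. In RNA of KO heart 6 and WT heart 2, 38 other fibroblast and fibrous matrix genes were at 0.23 and 0.03. The 15 other collagen, laminin and basement membrane genes were at 0.15 and -0.05. In footprints the former were at 0.23 and 0.55 and the latter at 0.20 and -0.05. Footprints of WT heart 2 were at 0.32 for collagen synthesis, 0.35 for matrix proteases, 0.33 for TGF-beta signalling and 0.13 for matrix receptors. In RNA of hearts 6 and 2 these lists lay between -0.03 and 0.11.

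**Figure D1:**
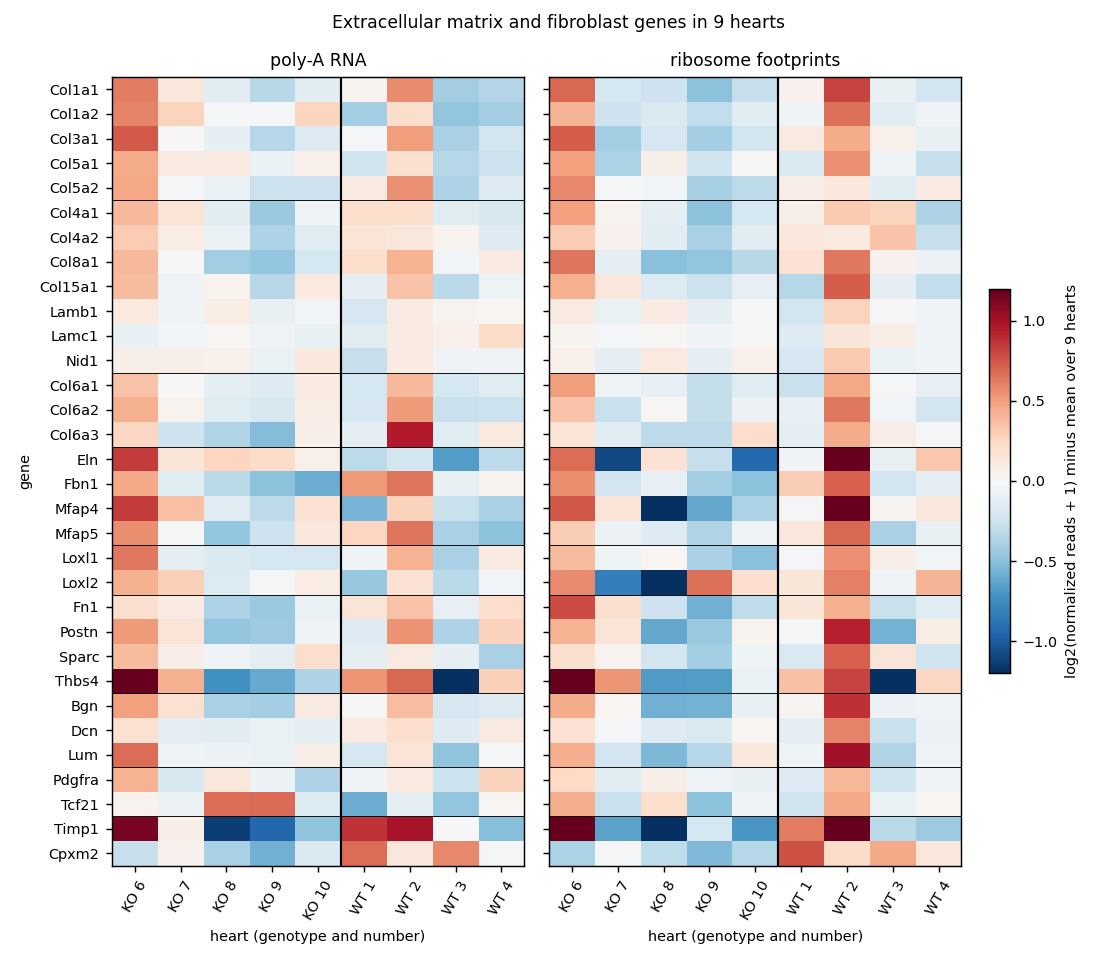
Each row is a gene and each column a heart, KO hearts left of WT hearts. Colour gives log2(normalized reads + 1) minus the gene's mean over 9 hearts (colours end at the limits of the bar), and thin lines separate roles. KO heart 6 and WT heart 2 are red for most rows in RNA and in footprints, while Lamb1, Lamc1 and Nid1 stay pale.

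Markers of other cell types were set beside these levels. Of 18 macrophage and leukocyte markers 16 were measured, 16 tested in RNA and 15 in footprints, and they had a median level of 0.32 in RNA and 0.18 in footprints of KO heart 6, and of 0.17 in RNA and 0.78 in footprints of WT heart 2. Their summed RNA ran from 5810 to 8196 normalized reads in KO and from 6389 to 7201 in WT. Their summed footprints ran from 27109 to 40713 normalized reads in KO and from 34820 to 63291 in WT, and only Itgam was at 0 in a library. The 15 endothelial markers had a level of 0.07 in RNA and 0.06 in footprints of heart 6, and of 0.21 in RNA and 0.15 in footprints of heart 2. Summed endothelial RNA was 30220 to 34042 in KO and 34235 to 39010 in WT, and summed endothelial footprints were 55351 to 65160 in KO and 57008 to 67512 in WT. The 10 smooth muscle and pericyte markers were at their highest in KO heart 6 in both assays, at 0.25 in RNA and 0.32 in footprints, against -0.10 and -0.05 in WT heart 2. The 12 cardiomyocyte markers stayed between -0.08 and 0.13 in every library, with summed RNA of 2026884 to 2239800 in KO and 2166968 to 2512485 in WT. Of valve, tendon and cartilage markers 3 of 8 were measured, with levels of 1.31 in RNA and 1.55 in footprints of heart 6 and of 0.20 and 1.59 in heart 2, and Scx was at 0 in a footprint library. In RNA this list was also high in KO heart 7, at 1.07, and in WT heart 1, at 0.98, and in footprints of KO heart 7, at 1.07, where the matrix genes were not. Their summed RNA was 133 to 403 normalized reads in KO and 82 to 338 in WT. Of epicardial and mesothelial markers 1 of 9 was measured, Aldh1a2, at 1.26 in RNA and 1.91 in footprints of heart 6 and 0.04 and -0.01 in heart 2. Of Schwann and nerve markers 1 of 7 was measured, Cnp, with levels of 0.53 and -0.05 in heart 6 and of -0.65 and -0.04 in heart 2, in RNA and in footprints. Heart 2 also had the shallowest footprint library, at 6.67 M reads, and heart 6 the deepest, at 40.8 M. The part of these cell types or of depth in the high matrix values of hearts 6 and 2 was not tested.

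**Figure D2:**
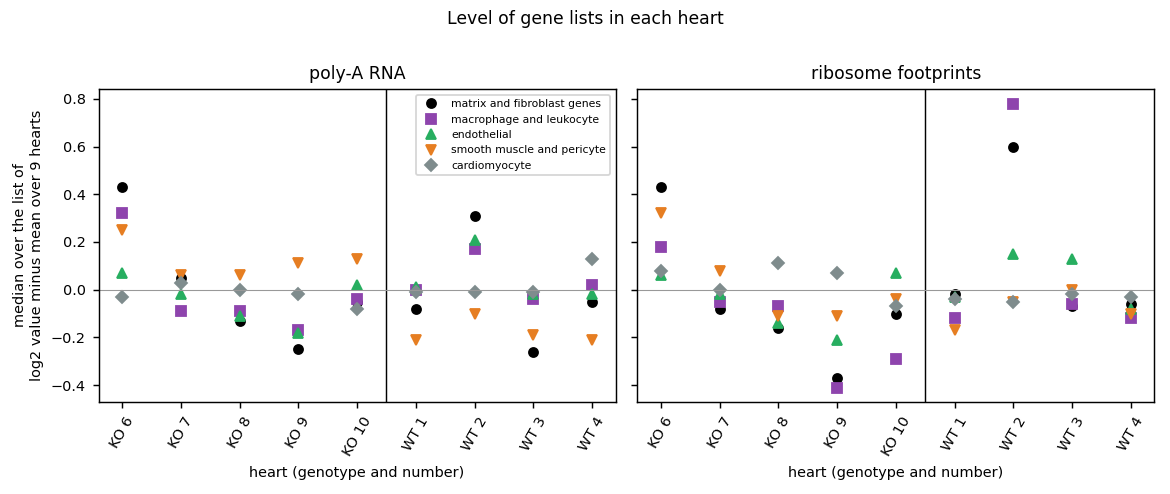
Points give, for each heart and each gene list, the median over the list of log2(normalized reads + 1) minus the gene's mean over 9 hearts, KO hearts left of WT hearts. Matrix and fibroblast genes (black circles) reach 0.43 in RNA of KO heart 6 and 0.60 in footprints of WT heart 2, while cardiomyocyte markers (grey diamonds) stay near 0.

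Spread within a genotype, as the pooled SD of log2 values, had a median of 0.29 over the 32 genes in RNA, against 0.14 over all 10580 genes tested. In RNA 29 of the 32 lay above that all-gene median, and in footprints 24 did, with medians of 0.34 for these genes and 0.30 for all. Thbs4, a matricellular thrombospondin, had the largest RNA spread at 0.93. Lamc1, the laminin gamma 1 chain, had the smallest, at 0.10 in RNA and 0.09 in footprints. Lamb1 and Nid1, the laminin beta 1 chain and the nidogen that links laminin to type IV collagen, were also narrow in RNA, at 0.11 and 0.12.

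Against this spread, few matrix transcripts differed between KO and WT hearts. In RNA 2 of the 32 genes, Eln and Col1a2, rose, and 1, Cpxm2, fell (limma with Benjamini-Hochberg adjustment over all genes, adjusted p below 0.05). That is 9.38%, where 49.4% of the 10580 genes tested passed, 24.3% higher and 25.1% lower in KO. Their median log2 fold change, KO over WT, was 0.00, against 0.01 for all genes, and 16 of the 32 lay below 0, against 48.9% of all genes. At an unadjusted p below 0.05 stood 6 of the 32, against 55.7% of all genes. The count of falls was 5 without KO heart 6 and the count of rises 5 without WT heart 2. With both hearts left out, a choice made after seeing the data, 3 rose and 3 fell. The share of all genes passing was not taken in these fits, so their counts cannot be set against it.

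Eln encodes tropoelastin, the monomer of elastic fibres (chromosome 5, 134702595 to 134747368, GRCm38). Its RNA was 406, 250, 270, 263 and 235 normalized reads in KO hearts 6, 7, 8, 9 and 10, against 181, 194, 142 and 181 in WT hearts 1, 2, 3 and 4. Every KO heart lay above every WT heart. Eln was the only gene of the 32 without overlap in RNA, where 40.5% of all genes had none. The span of an annotated noncoding gene, Gm30003, overlaps that of Eln by 1657 bases. Exons were not compared, and unstranded RNA reads in any shared exon cannot be assigned with certainty. Eln RNA averaged 285 ± 68.9 in KO (SD, n = 5) and 175 ± 22.7 in WT (SD, n = 4), a log2 difference, KO minus WT, of 0.68 ± 0.15 (SE, adjusted p = 0.0031 in limma). Over all alternatives its adjusted p was 0.00181 to 0.0113.

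Eln footprints did not pass. They were 778, 229, 548, 402 and 254 normalized reads in KO hearts 6, 7, 8, 9 and 10, against 472, 1167, 459 and 610 in WT hearts 1, 2, 3 and 4. The genotypes overlapped, and WT heart 2 was the highest of the 9. KO minus WT came to -0.65 ± 0.33 on the log2 scale (SE, adjusted p = 0.851 in limma), with a 95% interval from -1.36 to 0.05. Elastin is also made by smooth muscle cells, and 5 rose and 1 fell in RNA among 10 markers of smooth muscle cells and pericytes, where 49.4% of all genes passed and 24.3% rose. The median log2 fold change of these markers was 0.28 in RNA. The level of that list in RNA was 0.06 to 0.25 in KO hearts and -0.21 to -0.10 in WT hearts. Its summed RNA was 17738 to 19526 normalized reads in KO and 17646 to 18747 in WT, and none of the 10 was at 0. In footprints 0 of the 10 passed, and the level of the list was -0.11 to 0.32 in KO hearts and -0.17 to 0.00 in WT hearts. The part of these cells in the Eln and Col1a2 values was not tested.

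Col1a2 encodes the alpha 2 chain of type I collagen, the main fibre of the ventricular wall, which pairs with Col1a1 chains (chromosome 6, 4505618 to 4541543, GRCm38). Its RNA was 2622, 2086, 1716, 1707 and 2072 normalized reads in KO hearts 6 to 10, against 1306, 2009, 1245 and 1295 in WT hearts 1 to 4. WT heart 2 lay within the KO range and the other WT hearts lay below it. KO minus WT came to 0.49 ± 0.15 on the log2 scale (SE, adjusted p = 0.0201 in limma). The call was lost without WT heart 1, 3 or 4, at limma adjusted p of 0.0572, 0.063 and 0.0576. Without WT heart 2 the RNA log2 fold change was 0.65 (limma adjusted p = 0.00185). Without hearts 6 and 2 together, chosen after seeing the data, it was 0.56 (0.000734). Col1a2 footprints were 8402, 5328, 5619, 5142 and 5782 in KO hearts and 6124, 10019, 5774 and 6142 in WT hearts, with a log2 difference, KO minus WT, of -0.20 ± 0.17 (SE, adjusted p = 0.854 in limma).

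Col1a1, the other chain of type I collagen, did not pass in RNA. It had 2379, 1715, 1418, 1238 and 1424 normalized RNA reads in KO hearts 6 to 10, against 1602, 2303, 1165 and 1222 in WT hearts 1 to 4, and a log2 difference, KO minus WT, of 0.07 ± 0.21 (SE, adjusted p = 0.802 in limma). Within each heart, the ratio of Col1a2 to Col1a1 RNA reads was 1.10, 1.22, 1.21, 1.38 and 1.45 in KO and 0.815, 0.873, 1.07 and 1.06 in WT, so the genotypes did not overlap. The same ratio of footprint reads was 0.745 to 1.04 in KO and 0.816 to 1.03 in WT. This ratio was formed after the values were seen and is given without a test.

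Cpxm2, a secreted carboxypeptidase-like protein (chromosome 7, 132032687 to 132154765, GRCm38), had lower mean values in KO hearts in both assays and passed in RNA. Its RNA was 996, 1257, 922, 809 and 1071 normalized reads in KO hearts 6 to 10, against 1926, 1330, 1798 and 1197 in WT hearts 1 to 4. Only KO heart 7 reached the WT range. Cpxm2 RNA averaged 1011 ± 168 in KO (SD, n = 5) and 1563 ± 354 in WT (SD, n = 4), a log2 difference, KO minus WT, of -0.62 ± 0.15 (SE, adjusted p = 0.00556 in limma, 0.00232 to 0.021 over all alternatives).

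Cpxm2 footprints were 1188, 1518, 1250, 1069 and 1213 in KO hearts 6 to 10, against 2613, 1798, 2119 and 1700 in WT hearts 1 to 4. All KO hearts lay below all WT hearts, which made Cpxm2 the only gene of the 32 without overlap in footprints, where 1.60% of all genes had none. The log2 fold change was -0.71 ± 0.15 (SE), with an unadjusted p of 0.000176 that did not pass after adjustment in limma (adjusted p = 0.293). DESeq2 on the whole footprint reads gave -0.72 with an adjusted p of 0.0106. It was the only call among 16 alternatives, and the other 15, edgeR on the same reads included, gave none. With each heart left out the limma adjusted p was 0.155 to 0.953. The authors' deposited table lists Cpxm2 footprints at a log2 fold change of -0.57 with an adjusted p of 0.0109. Cpxm2 did not share the high values of hearts 6 and 2, as WT heart 1 was its highest in both assays.

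**Figure D3:**
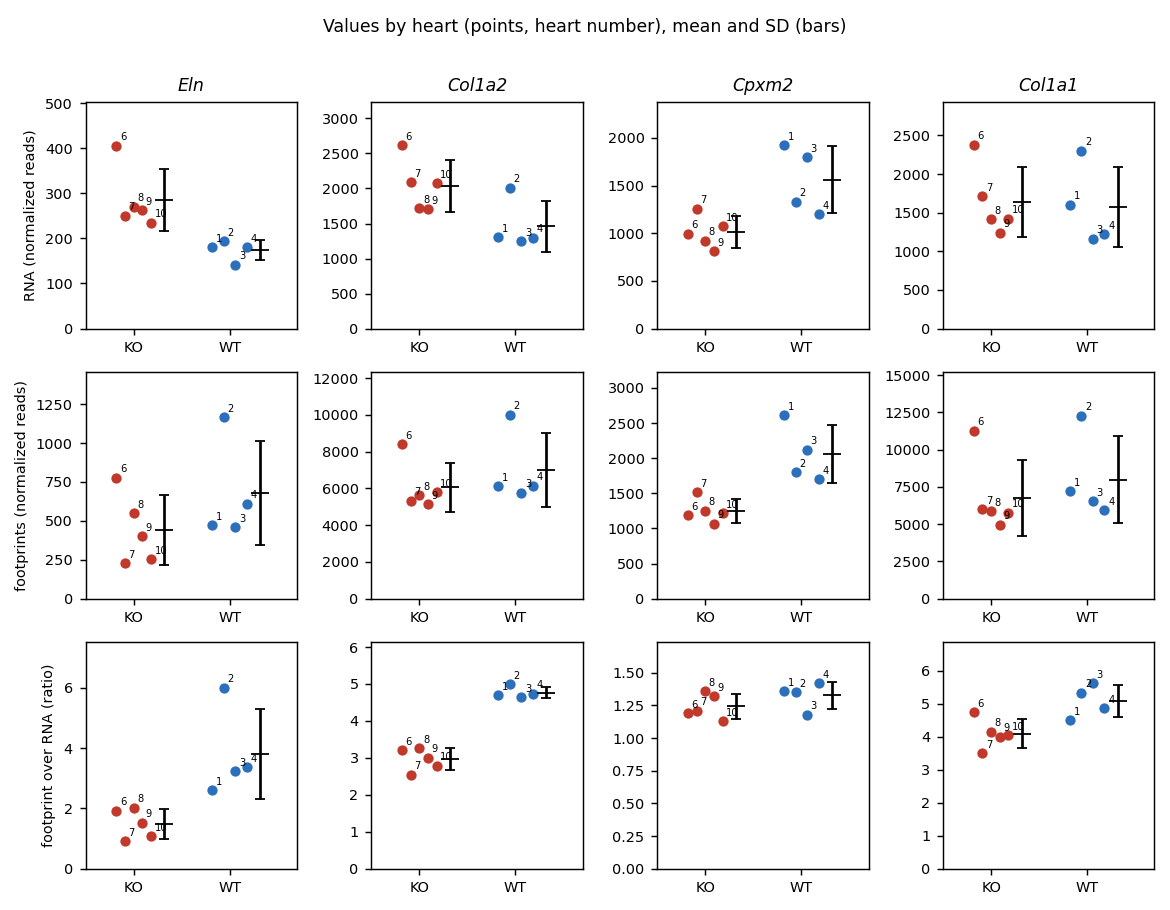
Points are hearts with their numbers, KO left of WT, for RNA and footprints in normalized reads and for the footprint over RNA ratio; the bar beside each group is its mean and SD (n = 5 KO, n = 4 WT). Eln RNA is higher in all 5 KO hearts and Cpxm2 footprints are lower in all 5. In RNA and footprints of Col1a1, hearts 6 and 2 stand above the others of their genotype.

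In footprints 0 of the 32 genes passed limma, where 0.0200% of the 9976 genes tested did, 1 of the 32 (Cpxm2) had an unadjusted p below 0.05, edgeR on whole reads called 0 of them, where it called 0.0200% of all genes, and DESeq2 called 1, where it called 0.0602%. The unadjusted p was below 0.05 for 5.06% of all genes. Of the 32 fold changes 28 lay below 0, against 50.5% of all genes, with a median of -0.17 against -0.00 for all genes. Without WT heart 2 the median was -0.01 and 16 lay below 0, and without each of the other hearts the median stayed between -0.27 and -0.10, with 21 to 32 below 0. Without hearts 6 and 2 together the median was -0.13 and 24 lay below 0.

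Of the remaining fibrillar chains 0 of 3 passed. Of all genes 49.4% passed in RNA, 0.0200% in footprints and 14.4% in efficiency. Col3a1, the chain of type III collagen in distensible fibres, had 5499, 3281, 3062, 2592 and 2960 normalized RNA reads in KO hearts 6 to 10, against 3239, 4651, 2507 and 2826 in WT hearts 1 to 4. Its footprints were 10094, 4575, 5291, 4582 and 5220 in KO hearts and 6577, 8269, 6349 and 5721 in WT hearts. Heart 6 was the highest of all 9 in both assays and the genotypes overlapped, with log2 fold changes of 0.06 ± 0.21 in RNA and -0.23 ± 0.19 in footprints (SE). Col5a1 and Col5a2, type V chains that set fibril diameter, had RNA log2 fold changes of 0.28 ± 0.12 and -0.06 ± 0.18 (SE). Col5a1 RNA was 1120, 886, 881, 779 and 860 in KO hearts and 697, 940, 651 and 695 in WT hearts, so WT heart 2 alone among WT hearts reached the KO range. Col5a1 RNA passed limma without WT heart 2 (adjusted p = 0.00924), without KO heart 9 (0.0433), with quantile normalization (0.0287) and without hearts 6 and 2 together (0.00488).

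Of the basement membrane and network collagen genes 0 of 7 passed in RNA, footprints or efficiency. The shares of all genes were 49.4%, 0.0200% and 14.4%, so a lack of footprint calls does not set these genes apart. Col4a1 had 10460, 8966, 7274, 5858 and 7686 normalized RNA reads in KO hearts 6 to 10, against 9222, 9232, 7228 and 6979 in WT hearts 1 to 4. Its footprints were 14743, 10806, 9725, 7466 and 9064 in KO hearts and 11027, 13029, 12614 and 8141 in WT hearts, with overlap in both assays. Col4a2, the partner chain that starts beside it, kept a near fixed ratio to Col4a1 in RNA, at 0.817 to 0.914 in KO and 0.827 to 0.984 in WT. The annotated genes overlap by 85 bases and the RNA libraries do not mark strand, so reads there cannot be assigned to either gene. Lamc1 had 3309, 3441, 3538, 3363 and 3299 normalized RNA reads in KO hearts and 3193, 3764, 3672 and 4094 in WT hearts. KO hearts lay within the WT range, and the log2 fold changes of Lamc1 were -0.11 ± 0.07 in RNA and -0.01 ± 0.10 in footprints (SE), the footprint interval running from -0.22 to 0.20. Without WT heart 1, Lamc1 RNA passed at -0.18 (adjusted p = 0.016 in limma). Lamb1 and Nid1 had RNA log2 fold changes of 0.02 ± 0.07 and 0.11 ± 0.07 (SE), and Nid1 passed with quantile normalization at 0.19 (adjusted p = 0.0475 in limma).

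Among the network collagens, Col8a1, a short-chain collagen of vessel walls, had log2 fold changes of -0.31 ± 0.16 in RNA and -0.35 ± 0.22 in footprints (SE). Its RNA call appeared without KO heart 6 (limma adjusted p = 0.0126) and without hearts 6 and 2 together (0.0387). Col15a1, a collagen at the outer face of basement membranes, had 7724, 6282, 5112, 4781 and 5351 footprint reads in KO hearts 6 to 10, against 4507, 9470, 5287 and 4663 in WT hearts 1 to 4. The log2 fold changes of Col15a1 were 0.07 ± 0.14 in RNA and 0.02 ± 0.19 in footprints (SE), and WT heart 2 held the highest footprint value.

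The type VI chains form the beaded filaments that join basement membrane to fibres. In RNA, footprints and efficiency 0 of 3 passed, where 49.4%, 0.0200% and 14.4% of all genes did. Col6a2 had 2134, 1635, 1430, 1384 and 1680 normalized RNA reads in KO hearts 6 to 10, against 1375, 2251, 1319 and 1327 in WT hearts 1 to 4. Hearts 6 and 2 were again the highest of their genotypes. Col6a3 RNA was 1359, 961, 890, 797 and 1204 in KO hearts and 1063, 2209, 1037 and 1246 in WT hearts, so heart 2 held the top value and the log2 fold change was -0.37 ± 0.22 (SE, adjusted p = 0.181 in limma). Col6a1 had an RNA log2 fold change of 0.08 ± 0.13 (SE).

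The other elastic fibre genes did not share the Eln RNA call. Fbn1, the fibrillin scaffold on which elastin is laid, had 2634, 1739, 1539, 1367 and 1273 normalized RNA reads in KO hearts 6 to 10, against 2749, 3003, 1808 and 1989 in WT hearts 1 to 4. Most KO values lay below all WT values, but heart 6 did not, and the log2 fold change of -0.50 ± 0.21 (SE) had a limma adjusted p of 0.0631. In limma it was -0.67 without KO heart 6 (adjusted p = 0.00463), -0.62 without WT heart 3 (0.037) and -0.55 without hearts 6 and 2 together (0.0135). Mfap4, a microfibril-associated protein that binds elastin, had 137, 98.5, 69.7, 61.3 and 86.4 RNA reads in KO hearts and 51.5, 92.4, 63.3 and 58.2 in WT hearts. Its footprints were 1326, 875, 319, 513 and 604 in KO hearts and 783, 1874, 804 and 866 in WT hearts, with a log2 difference, KO minus WT, of -0.63 ± 0.33 (SE, adjusted p = 0.851 in limma). Mfap5, another microfibril protein, had log2 fold changes of -0.01 ± 0.25 in RNA and -0.15 ± 0.20 in footprints (SE).

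The lysyl oxidases cross-link collagen and elastin. Loxl1, needed for elastic fibre upkeep, had 1022, 607, 582, 568 and 573 normalized RNA reads in KO hearts 6 to 10, against 635, 878, 501 and 708 in WT hearts 1 to 4, and KO heart 6 stood well above the other KO hearts. Loxl2 had RNA of 352, 320, 234, 258 and 279 in KO hearts and 191, 295, 209 and 256 in WT hearts, but few footprints. Loxl2 footprints were 127, 48.1, 25.2, 136 and 98.5 in KO hearts and 94.6, 131, 82.5 and 114 in WT hearts, so KO hearts ran both below and above the WT range. Neither gene passed in any of the 3 fits, where 49.4% of all genes passed in RNA. Loxl2 RNA passed without WT heart 2 (adjusted p = 0.0447 in limma).

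Adhesive and matricellular proteins link cells to fibres, and 0 of 4 passed, where 49.4% of all genes passed in RNA and 0.0200% in footprints. Sparc, which binds collagen and guides its assembly, had 4343, 3518, 3236, 3088 and 3867 normalized RNA reads in KO hearts 6 to 10, against 3078, 3600, 3083 and 2550 in WT hearts 1 to 4. Its footprints were 16138, 14545, 12118, 10646 and 13564 in KO hearts and 12383, 23127, 15694 and 11939 in WT hearts, with heart 2 far above the rest. The log2 fold changes of Sparc were 0.23 ± 0.11 in RNA and -0.20 ± 0.17 in footprints (SE), and its RNA passed limma without WT heart 2 (adjusted p = 0.0438). Fn1, fibronectin, had RNA of 1975, 1854, 1336, 1270 and 1636 in KO hearts and 1926, 2187, 1618 and 1998 in WT hearts, a log2 difference, KO minus WT, of -0.27 ± 0.13 (SE, adjusted p = 0.11 in limma). Fn1 RNA passed only without KO heart 6 among the alternatives (limma adjusted p = 0.0358). Postn, periostin, a product of activated fibroblasts, had log2 fold changes of -0.13 ± 0.22 in RNA and -0.20 ± 0.25 in footprints (SE).

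Thbs4, thrombospondin 4, had the widest RNA spread of the 32 genes, and Timp1 the widest in footprints, at a pooled SD of 1.17. Thbs4 RNA was 510, 280, 125, 136 and 161 normalized reads in KO hearts 6 to 10, against 301, 336, 72.2 and 253 in WT hearts 1 to 4. Thbs4 footprints followed heart by heart, at 1048, 651, 281, 283 and 426 in KO hearts and 577, 794, 137 and 536 in WT hearts. Heart 6 was highest and heart 3 lowest in both assays. The log2 fold changes of Thbs4 were 0.01 ± 0.49 in RNA and 0.14 ± 0.44 in footprints (SE), with a 95% interval in RNA from -1.06 to 1.07.

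Small leucine-rich proteoglycans coat collagen fibrils, and 0 of 3 passed in RNA or footprints, where 49.4% and 0.0200% of all genes did. Dcn, decorin, had 9247, 7491, 7445, 7718 and 7569 normalized RNA reads in KO hearts 6 to 10, against 8726, 9358, 7326 and 8752 in WT hearts 1 to 4, a log2 fold change of -0.11 ± 0.08 (SE). Dcn footprints were 38373, 33553, 30413, 30059 and 34588 in KO hearts and 31474, 51259, 28127 and 32357 in WT hearts, again with heart 2 on top. Bgn, biglycan, and Lum, lumican, had footprint log2 fold changes of -0.35 ± 0.21 and -0.25 ± 0.23 (SE).

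The fibroblast identity genes gave no call, where 49.4% of all genes passed in RNA. Pdgfra, the PDGF receptor of fibroblasts, had 504, 329, 413, 358 and 290 normalized RNA reads in KO hearts 6 to 10, against 365, 405, 315 and 456 in WT hearts 1 to 4. Its footprints were 2681, 2067, 2392, 2194 and 2143 in KO hearts and 2050, 2999, 1931 and 2217 in WT hearts, and the log2 fold changes of Pdgfra were -0.04 ± 0.15 and 0.01 ± 0.14 (SE) in the 2 assays. Tcf21, a transcription factor of the epicardial and fibroblast lineage, had RNA of 43.7, 40.5, 68.2, 68.7 and 37.8 in KO hearts and 27.8, 39.4, 30.4 and 43.3 in WT hearts. Hearts 8 and 9 were the high ones here, unlike for the collagens, and the log2 fold change of 0.52 ± 0.23 (SE) had a limma adjusted p of 0.0844. Timp1, an inhibitor of matrix metalloproteinases, had RNA of 130, 61.5, 26.1, 29.8 and 41.4 in KO hearts and 107, 117, 58.2 and 40.6 in WT hearts, a log2 difference, KO minus WT, of -0.61 ± 0.45 (SE, adjusted p = 0.287 in limma). Without KO heart 6 it was -0.96 (adjusted p = 0.0454 in limma). Its gene lies within the span of Syn1 in the annotation, and Syn1 was not among the measured genes. Exons of the 2 were not compared, so whether any unstranded RNA reads are shared is not known.

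**Figure D4:**
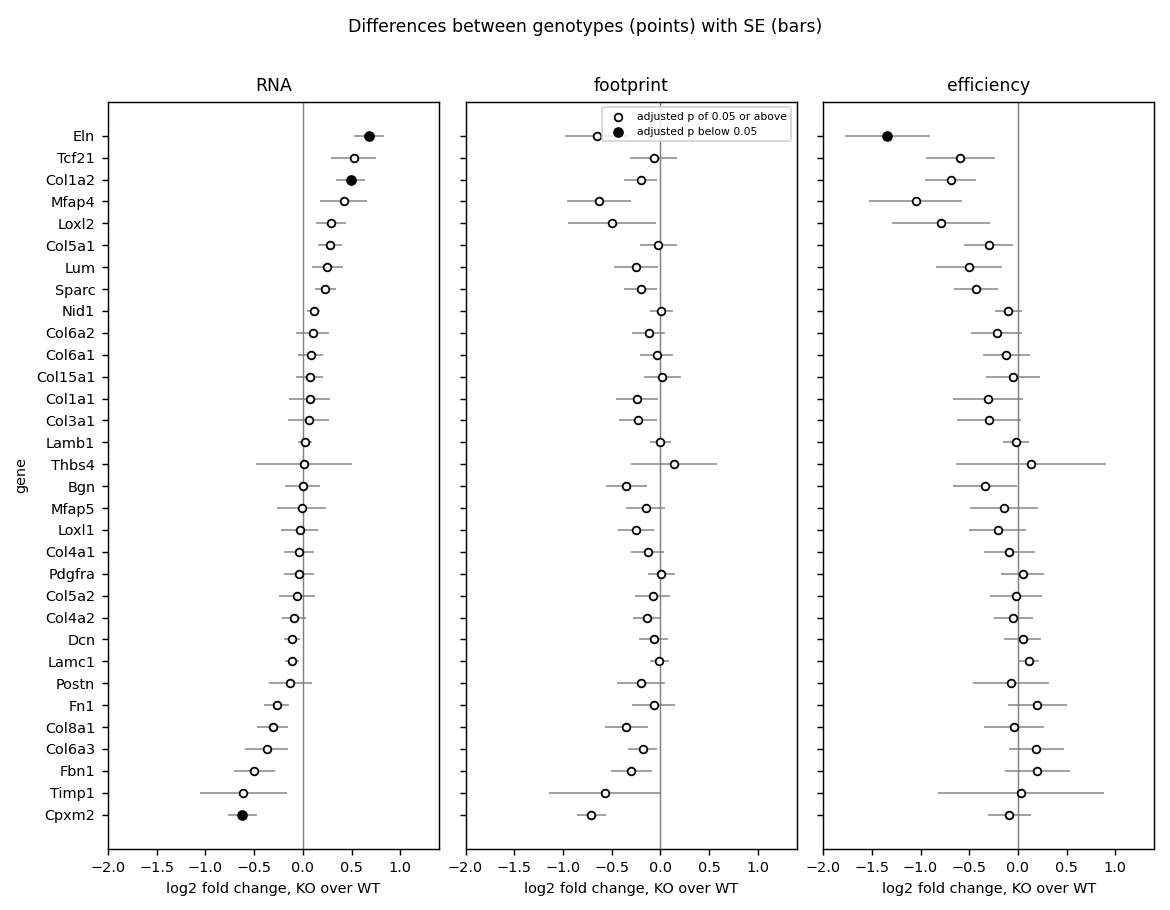
Points are log2 fold changes, KO over WT, for the 32 genes in RNA, footprints and efficiency, with SE as bars; filled points passed limma at an adjusted p below 0.05. Eln and Col1a2 are filled to the right and Cpxm2 to the left in RNA, none is filled in footprints, and Eln alone is filled in efficiency.

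Translational efficiency is the footprint signal of a heart divided by its RNA signal. The 32 genes had a median ratio of 2.82 over the 9 hearts, against 1.49 for the 9974 genes tested, and 28 of them lay above that median. Ordered by the mean over the 9 hearts, Mfap4 had the highest, at 7.70 ± 2.00 in KO (SD, n = 5) and 15.8 ± 3.21 in WT (SD, n = 4). Pdgfra came next in the order, at 6.18 ± 0.773 in KO and 6.01 ± 1.07 in WT (SD, n = 5 and 4), followed by Tcf21 at 4.62 ± 1.76 in KO and 6.63 ± 1.05 in WT and Lum at 4.58 ± 0.581 in KO and 6.62 ± 1.97 in WT. In WT hearts alone Tcf21 and Lum lay above Pdgfra, and the SDs of the 3 overlap there. Loxl2 had the lowest, at 0.300 ± 0.172 in KO and 0.446 ± 0.0412 in WT (SD, n = 5 and 4), and 10.1% of genes lay below its mean. The span of an annotated noncoding gene, Gm27177, overlaps that of Loxl2 by 31779 bases. Exons were not compared, and unstranded RNA reads in any shared exon could not be told apart. The second lowest was Cpxm2, at 1.24 ± 0.0936 in KO and 1.33 ± 0.103 in WT (SD, n = 5 and 4).

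**Figure D5:**
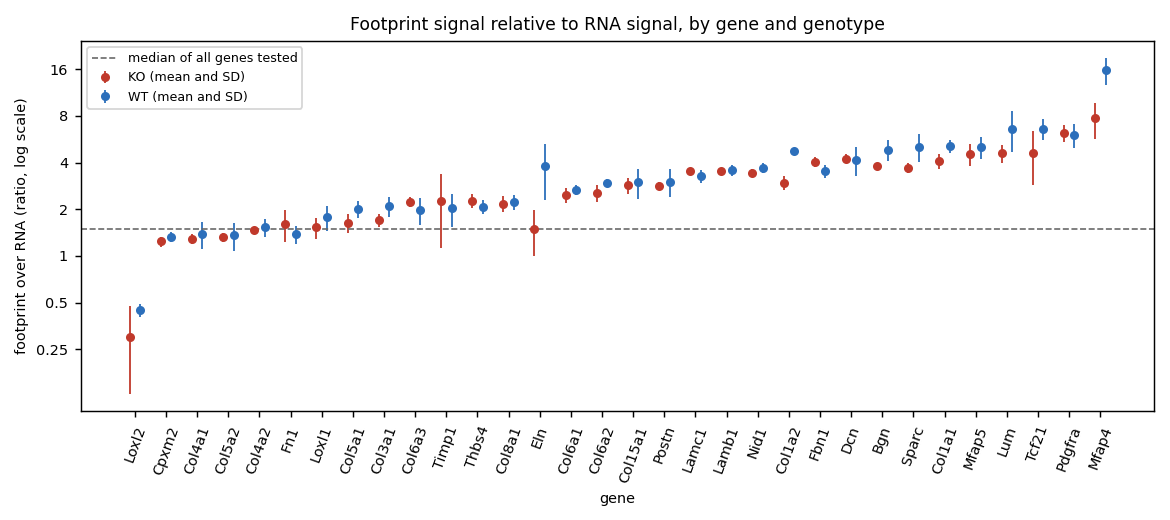
Points are the mean footprint over RNA ratio of each gene in KO (left) and WT (right) hearts, with SD as bars, on a log scale; the dashed line is the median of all genes tested, 1.49. The ratio runs from 0.300 for Loxl2 to 7.70 for Mfap4 in KO hearts, and Eln, Col1a2 and Mfap4 are lower in KO than in WT.

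Between genotypes, 1 of the 32 genes, Eln, fell in efficiency and 0 rose (limma interaction of genotype and assay), or 3.12%, where 14.4% of all genes passed, 7.83% higher and 6.55% lower in KO. This fit counts the RNA and footprint libraries of a heart as independent. The median log2 fold change of the 32 genes was -0.10, against -0.02 for all genes, and 24 lay below 0, against 52.0% of all genes. Without WT heart 2 this count was 20, without WT heart 3 it was 21, and without hearts 6 and 2 together 22. Without each of the other hearts it was 24 to 26. At an unadjusted p below 0.05 stood 3 of the 32, against 27.8% of all genes. RNA enters this ratio as the divisor, so each RNA difference counts in it with the opposite sign. Footprint differences lay below 0 for 13 of the 16 genes with an RNA difference above 0, Eln and Col1a2 among them, and for 15 of the 16 with an RNA difference below 0. Over all genes tested in both assays these shares were 49.9% and 51.1%. Without WT heart 2, 16 of the 32 footprint differences lay below 0.

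The Eln ratio was 1.92, 0.914, 2.03, 1.53 and 1.08 in KO hearts 6 to 10, against 2.61, 6.01, 3.24 and 3.36 in WT hearts 1 to 4. No KO heart reached a WT heart. The ratios of 4 of the 32 genes did not overlap between genotypes, against 18.3% of all genes. KO minus WT came to -1.34 ± 0.44 on the log2 scale (SE, adjusted p = 0.0466 in limma). Leaving out any heart but KO heart 6 ended the call, with adjusted p from 0.0533 to 0.114, the highest without WT heart 2. It was also lost with no minimum on low values (0.0611) and with quantile normalization (0.0537).

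With the heart as a replicate block, that is, on the difference of footprint and RNA log2 values within each heart, 6 of the 32 genes fell in efficiency, where 18.6% of all genes passed in either direction, 9.92% higher and 8.65% lower in KO. These were Eln (limma adjusted p = 0.00438), Col1a2 (0.000393), Mfap4 (0.0081), Sparc (0.0234), Bgn (0.0331) and Lum (0.0439). WT heart 2, with the shallowest footprint library, had the highest ratio for all 6. The values were 6.01 for Eln, 4.99 for Col1a2, 20.3 for Mfap4, 6.42 for Sparc, 5.96 for Bgn and 9.53 for Lum. The Sparc and Lum ratios overlapped between genotypes. The fit with the block was not run with a heart left out. The Col1a2 ratio was 3.21, 2.55, 3.27, 3.01 and 2.79 in KO hearts 6 to 10, against 4.69, 4.99, 4.64 and 4.74 in WT hearts 1 to 4. The ranges did not overlap, and the log2 fold change of Col1a2 efficiency was -0.69 ± 0.26 (SE) with a limma adjusted p of 0.0818 without the block. Col1a2 efficiency also passed with quantile normalization (limma adjusted p = 0.0402), without WT heart 2 (0.0445) and without hearts 6 and 2 together (0.00222). The authors' deposited table gives efficiency as WT over KO and lists Eln at 1.35 and Col1a2 at 0.73 (log2), with adjusted p of 0.0219 and 0.0453. The Mfap4 ratio was 9.66, 8.88, 4.57, 8.38 and 7.00 in KO hearts and 15.2, 20.3, 12.7 and 14.9 in WT hearts, also without overlap, and Bgn was the remaining gene of the 4 whose ratios did not overlap. Fn1, Fbn1 and Col6a3 had the largest differences upward, at 0.20 ± 0.30, 0.20 ± 0.33 and 0.19 ± 0.28 (SE), and none passed.

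The wider matrix pathway was described from 6 further lists, with log2 fold changes given for the genes named, at most the 4 with the smallest adjusted p in a list and assay. In RNA 36.1% of the 158 genes tested passed, against 49.4% of all genes. Of 15 other collagen, laminin and basement membrane genes, 5 rose and 0 fell in RNA, with Col4a5 at 0.59, Lamb2 at 0.36, Lama5 at 0.92 and Lamb3 at 0.45. Of 25 genes of collagen synthesis and processing, 3 rose and 4 fell. They included P3h1 and P3h3, prolyl 3-hydroxylase family members, at 0.36 and 0.50, P4hb, the protein disulfide isomerase subunit of prolyl 4-hydroxylase, at -0.44, and Mia3, a receptor for collagen export, at -0.23. Of 23 matrix proteases and inhibitors, 7 rose and 2 fell, with the lysosomal cathepsins Ctsl and Ctsb at -0.94 and 0.30, Adamts10 at 0.38 and Mmp11 at 0.69.

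In TGF-beta signalling, the main pathway known to drive matrix genes, 5 of 29 genes rose and 3 fell in RNA. That is 27.6%, where 49.4% of all genes passed, 24.3% higher and 25.1% lower in KO. Smad4, its shared transcription factor, was at -0.65, the matricellular Ccn1 at -0.54, Smurf2, a ubiquitin ligase of the pathway, at -0.26 and Ltbp1, which stores the ligand in the matrix, at 0.34. Of 28 matrix receptors and integrin partners, 10 rose and 6 fell, with Tln1, talin, at 0.43, Bcam, a laminin receptor, at 0.50, Parva at 0.55 and Dag1, dystroglycan, at -0.35. Of 38 other fibroblast and fibrous matrix genes, 8 rose and 4 fell, with Ogn at 0.59, Gsn at 0.49, Tnxb at 0.43 and Ecm2 at -0.46. The medians of these 6 lists in RNA lay between -0.01 and 0.14, and called shares between 27.6% and 57.1%, against 49.4% of all genes.

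In footprints 0 of the 158 genes of these lists passed limma, and 11, or 6.96%, had an unadjusted p below 0.05, against 5.06% of all genes. In efficiency 4 rose and 4 fell, or 5.06%, against 14.4% of all genes. Those that rose in efficiency were Timp3 at 1.04, Smad4 at 0.64, Ecm2 at 0.54 and Dag1 at 0.32. Those that fell were Ogn at -0.71, Sgcd at -0.58, Parva at -0.53 and Itga7 at -0.34.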

How the data were processed

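Poly-A RNA and ribosome footprints came from the same 9 left ventricles, 5 KO and 4 WT. The tools named per the submitters' processing notes are DESeq2, HTSeq and STAR 2.7.1a, and the build is GRCm38 (mm10), with no role or order stated. The authors deposited a normalized read signal per gene and library. Per the file headers and values, gene counts were divided by 1 size factor per library. The deposited ratio is footprint signal over RNA signal of the same heart, and it differed from that quotient by at most 0.0497%. The authors' tables also hold log2 fold changes and p-value columns, per the file headers, and the rule that chose their genes is not stated. Of 10597 gene IDs, 10560 matched a symbol. The RNA kit does not mark strand, per the labels, and annotated noncoding genes overlap Col5a1, Col4a1, Col4a2, Col15a1, Postn, Pdgfra and Tcf21 besides those named in the text. No column of values was without a sample.

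Because the values are normalized, limma 3.58.1 (mean-variance trend, R 4.3.3) was run on log2(value + 1), and fold changes on this scale understate those of low genes. Genes with a mean under 10 were left out, all 32 listed genes passed, and p-values were adjusted by Benjamini-Hochberg over all genes tested (threshold 0.05). RNA and footprints were fitted separately on genotype, and efficiency as the interaction of genotype and assay over 18 libraries, without a term for the heart. The fits were tested on simulated data. Footprint values were whole reads after rescaling for 100% of values (tolerance 0.01 reads). On them edgeR 4.0.16 called 2 genes and DESeq2 1.42.0 called 6, while limma called 2. Same-heart RNA and footprint deviations from the group means correlated in every heart (lowest 0.277, median 0.442, 3233 genes with a mean of at least 500), against a median of -0.0992 between different hearts. The heart number therefore pairs an RNA and a footprint library of the same animal. Footprint libraries of a genotype differed beyond sampling noise (chi-square per degree of freedom at least 27.4), so none was counted as a repeat.

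The listed genes and gene lists were chosen with earlier results of these data known. Values in every heart are given for genes past the threshold, for the gene of each role with the most RNA and for the 3 largest rises and falls per assay. Col1a1, Col5a1 and Lamc1 met none of these rules, and their values are given in addition. At most 4 genes per further list are named, those with the smallest adjusted p. Motifs were counted in RefSeq promoter windows. Depth is the sum of whole reads over all 10597 genes. The p-values rest on the spread between animals, except in the efficiency fits without the block, which count both libraries of a heart as independent. Alternatives were a pseudocount of 5, no minimum, TMM factors, quantile normalization, each heart left out, the heart as a block, and edgeR or DESeq2 for footprints.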

Additional observations from a re-analysis of the deposited data

Results flagged for a closer look

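In 22 of 128 groups of hearts (a gene, an assay and a genotype), a single heart lay far from the others of its genotype by Dixon's gap test, and each time it was KO heart 6 or WT heart 2 and high. The test was run on normalized reads, not on log2 values. For normally distributed values chance flags about 1 in 20 groups, and whether that rate holds for these reads was not tested. Genes measured in the same heart are not independent. In RNA, in normalized reads, KO heart 6 stood apart for Col3a1 (5499), Col5a2 (936), Eln (406), Loxl1 (1022), Dcn (9247) and Lum (1359). WT heart 2 stood apart in RNA for Col1a2 (2009), Col5a1 (940.0), Col6a1 (1929) and Col6a2 (2251). In footprints, KO heart 6 stood apart for Col1a1 (11282), Col1a2 (8402), Col3a1 (10094), Col8a1 (1056), Col6a1 (5318) and Timp1 (462). WT heart 2 stood apart in footprints for Col1a2 (10019), Col15a1 (9470.0), Mfap4 (1874), Loxl1 (1557), Bgn (19897) and Lum (9101).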

How the results depend on the processing

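The counts of listed genes called moved with single hearts. Apart from the block fit, edgeR and DESeq2, the share of all genes called was taken only in the main limma fits. In RNA the number higher in KO was 1 to 5 and the number lower in KO 1 to 5 when each heart was left out, against 2 and 1 with all hearts, and quantile normalization gave 4 higher. Leaving out hearts 6 and 2 together, chosen after seeing the data, gave 3 lower in RNA and 2 lower in efficiency. In footprints DESeq2 on whole reads gave 1 lower, against 0 in limma, and the cause was not tested. In efficiency the number lower was 0 to 1 with each heart left out, against 1 with all, and 0 with no minimum. Quantile normalization moved the median efficiency difference to -0.19, against -0.10. With the heart as a replicate block, which pairs the RNA and footprint libraries of a heart, 6 genes were lower in efficiency. No called gene changed direction under any alternative run. Among uncalled genes, up to 12 of 32 changed sign in footprints, which was without WT heart 2, against 4 without hearts 6 and 2 together.

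The median SE of the RNA log2 fold change was 0.16 over the listed genes and 0.09 over all genes, and a fold change that did not pass is not shown to be absent. The shallowest footprint library, WT heart 2, held 6.67 M reads, and KO heart 6 had the deepest. RNA depth did not overlap between genotypes, so a batch of RNA libraries and genotype cannot be told apart.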
